A study of Mus musculus with 12 samples.

Results

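A set of 10 genes of meiosis were followed here in PGCLCs (primordial germ cell-like cells), culture-made mouse counterparts of the earliest germ cells, across 12 RNA libraries. They are Stra8, Meioc, Sohlh2, Smc1b, Sycp3, Hormad1, Sycp1, Syce1, Tex11 and Mei1, taken by name as a list of meiotic genes. The list was chosen with earlier results of these data known, so that its counts of calls are not those of a blind list. The list makes up 10 of the 35975 genes counted, with the estimated counts of a gene's transcripts added up under the GENCODE M21 annotation of the mouse genome build GRCm38. Of the 10 genes, 9 had enough counts to be tested, and Mei1 did not.

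E14TG2a embryonic stem cells, kept in 2i medium with LIF and vitamin C, were primed towards the state of the epiblast (EpiLCs). Aggregates of these cells then received LIF, EGF, SCF, BMP8 and BMP4 for 4 days, which induces germ cell fate. One genotype was wild type (WT) and the other is labelled TKO, which the study is known to use for a triple knockout of the DNA methyltransferase genes Dnmt1, Dnmt3a and Dnmt3b. There were 3 libraries each of WT primed for 40 h (WT_40h), TKO primed for 40 h (TKO_40h), TKO primed for 48 h (TKO_48h) and TKO primed for 96 h (TKO_96h). All groups shared the parent line, the media and the induction time, and they differed in genotype and in hours of priming. WT was present at 1 priming time, so that genotype and priming time cannot be told apart where TKO_48h or TKO_96h is set against WT_40h. The titles name no separate knockout clones, so that a property of the clone and the loss of the enzymes cannot be told apart either. Whether sorted germ cell-like cells or whole aggregates gave the RNA is not stated in the labels. In such bulk RNA, fewer cells of a type and less RNA per cell cannot be told apart. The replicates are labelled as biological, with no word on separate cultures, and the p-values measure the spread between these libraries.

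Meiosis pairs the parental chromosomes, exchanges DNA between them and reduces the chromosome set. A meiosis-specific cohesin and axis proteins organise each chromosome into loops, the synaptonemal complex zips the paired axes together, and recombination repairs programmed DNA breaks between them. Many genes of this programme have CpG-rich promoters that gain DNA methylation in the embryo around implantation and lose it in primordial germ cells, which is why they are commonly read as genes under methylation control. A Polycomb complex that holds MGA, MAX, L3MBTL2 and E2F6 also represses germline genes; MAX partners bind the E-box CACGTG, and E2F6 binds E2F motifs with the core GCGGGAA. DNA methylation itself was not measured in these libraries.

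Library depth ran from 6570180 to 9114128 estimated counts. TKO_48h replicate 1 stood apart from the other libraries on the second principal component (-85.6), and the TKO_96h libraries separated from all others on the first (56.7 to 70.1 against at most -7.93). The targeted genes were lower in every TKO library than in every WT library but were still counted: Dnmt1 lay at 64.9 to 152 CPM (counts scaled to library size) in TKO and 426 to 450 CPM in WT. Dnmt3a lay at 25.4 to 73.1 and 358 to 436 CPM, and Dnmt3b at 13.4 to 55.4 and 157 to 215 CPM.

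The stretches before the RefSeq starts of 6 of the genes are printed here to show how CpG number and motifs vary among them. Sycp3 and Hormad1 hold both marked motifs, Smc1b and Meioc hold the E2F core alone, Sycp1 holds the E-box alone, and Syce1 holds neither. The Meioc stretch lies inside its annotated gene. Sequences are from RefSeq (GRCm38.p6), read 5′ to 3′ on the gene's strand, and capitals mark the E-box CACGTG, the E2F core GCGGGAA and, as the reverse complement of that core, TTCCCGC. Smc1b is shown at chr15:85131965-85132077 (minus strand), Meioc at chr11:102665335-102665584 (plus), Sycp3 at chr10:88459337-88459568 (plus), Hormad1 at chr3:95559427-95559676 (plus), Sycp1 at chr3:102936101-102936350 (minus) and Syce1 at chr7:140787855-140788104 (minus). Stretches inside annotated exons were left out.
Smc1b: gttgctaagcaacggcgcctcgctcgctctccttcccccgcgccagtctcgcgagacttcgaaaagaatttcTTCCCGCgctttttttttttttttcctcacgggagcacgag
Meioc: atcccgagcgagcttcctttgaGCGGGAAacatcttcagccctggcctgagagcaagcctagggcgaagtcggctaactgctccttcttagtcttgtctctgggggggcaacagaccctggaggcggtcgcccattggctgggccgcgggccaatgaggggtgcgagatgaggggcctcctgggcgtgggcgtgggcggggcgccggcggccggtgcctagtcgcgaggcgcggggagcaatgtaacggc
Sycp3: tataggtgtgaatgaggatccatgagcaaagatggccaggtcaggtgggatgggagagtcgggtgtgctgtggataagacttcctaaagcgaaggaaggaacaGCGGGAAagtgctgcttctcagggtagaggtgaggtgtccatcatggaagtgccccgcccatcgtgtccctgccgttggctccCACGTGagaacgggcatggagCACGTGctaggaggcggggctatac
Hormad1: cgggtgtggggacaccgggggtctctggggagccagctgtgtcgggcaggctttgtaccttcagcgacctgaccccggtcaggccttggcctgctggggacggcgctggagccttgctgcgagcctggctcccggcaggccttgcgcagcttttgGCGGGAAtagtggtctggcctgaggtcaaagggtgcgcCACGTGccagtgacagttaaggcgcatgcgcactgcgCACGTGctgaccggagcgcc
Sycp1: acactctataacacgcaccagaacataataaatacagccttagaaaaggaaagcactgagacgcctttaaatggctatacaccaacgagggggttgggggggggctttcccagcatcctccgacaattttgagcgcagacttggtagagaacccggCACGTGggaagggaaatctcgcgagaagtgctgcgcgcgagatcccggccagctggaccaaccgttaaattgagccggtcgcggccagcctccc
Syce1: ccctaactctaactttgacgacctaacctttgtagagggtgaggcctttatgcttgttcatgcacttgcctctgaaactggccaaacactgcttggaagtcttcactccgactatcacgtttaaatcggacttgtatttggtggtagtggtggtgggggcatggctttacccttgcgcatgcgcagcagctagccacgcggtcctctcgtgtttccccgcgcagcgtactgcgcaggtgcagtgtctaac

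In the 250 bases before the RefSeq start, the number of CpG dinucleotides was 25 for Smc1b, 22 for Meioc, 19 for Hormad1, 17 for Sycp1, 14 for Sohlh2, 13 for Syce1, 12 for Sycp3, 8 for Mei1 and 5 for Stra8. Of the 250 bases of Smc1b, 137 lie in annotated exons of Smc1b and its neighbour Ribc2, and the stretch printed holds 13 CpG. Over all 32817 RefSeq promoters the median was 6, with quartiles of 2 and 16. The 4 richest of the genes thus lay above the upper quartile, and Stra8 lay below the median. CACGTG, which reads the same on both strands, occurred in 2 copies in Sycp3, in 2 copies in Hormad1 and in 1 copy in Sycp1, against 6.02% of all promoters with at least 1 copy. GCGGGAA on either strand, a core chosen after the sequences had been seen, occurred once each in Smc1b, Meioc, Sycp3 and Hormad1, against 3.82% of all promoters. The longer GGCGGGAA, which contains that core, was found in Hormad1 and in 1.85% of all promoters. Each of these words holds a CpG, and the shares of all promoters were not matched for CpG number. For the direct-repeat retinoic acid response element of the DR5 type, only the exact repeat was sought, with no variant letters allowed in its half-sites. That exact word was found in none of the 9 promoters and in 0.00914% of all (3 of 32817). A word this rare cannot show whether the 9 genes have or lack such an element, and variant forms were not searched for. Syce1, Sohlh2, Stra8 and Mei1, 4 of the 9, held none of these words, and such matches describe letters in a window, not occupied sites. Tex11 was not in the promoter table. The windows of Meioc, Stra8 and Mei1 lie wholly inside the annotated genes, and the Stra8 window lies within annotated exons and is not printed.

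**Figure D1:**
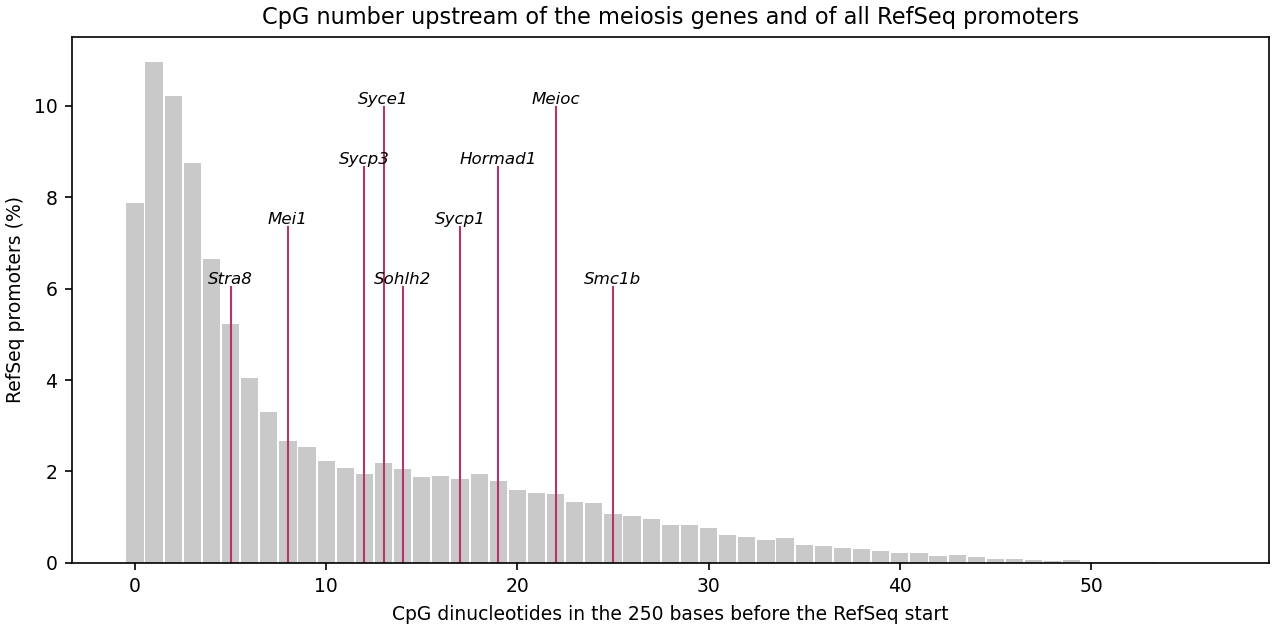
Grey bars give the percentage of 32817 RefSeq promoters (y axis) at each number of CpG dinucleotides in the 250 bases before the start (x axis), and vertical lines mark 9 of the meiosis genes at heights chosen for legibility. Smc1b, Meioc, Hormad1 and Sycp1 sit at 17 to 25 CpG, to the right of most promoters, and Stra8 sits at 5.

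At the same priming time, none of the 9 tested meiosis genes was called higher in the TKO cells than in WT, and 2 were called lower. Among uncalled genes, Tex11 and Hormad1 lay above every WT library in TKO_40h, and Stra8 and Sycp3 lay below every WT library. The share of all genes tested without such overlap was not computed. With 96 h of priming most of the 9 were called lower than with 40 h. A gene was called at an adjusted p below 0.05 (edgeR's quasi-likelihood test with Benjamini-Hochberg adjustment over 16178 genes). In TKO_40h against WT_40h, which differ in genotype at the same priming time, 2 of 9 fell and 0 rose, where 3.1% of all genes tested were called in either direction, 1.48% lower and 1.62% higher. Without any 1 WT_40h library, or without TKO_40h replicate 1 or 3, 0 of 9 were called. In TKO_48h against TKO_40h, 3 of 9 fell and 0 rose, with 5.49% of all genes called, 2.92% lower and 2.57% higher. Without TKO_48h replicate 1, the library that stood apart, 1 of 9 was called, Tex11. The same held without any 1 WT_40h or TKO_40h library, without TKO_48h replicate 3 and without TKO_96h replicate 2. In TKO_96h against TKO_40h, 6 of 9 fell and 0 rose, with 12.1% called in all, 7.2% lower and 4.94% higher. The genes that fell there were Tex11, Meioc, Smc1b, Stra8, Sycp3 and Hormad1.

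The later time points were also compared with each other and with WT. In TKO_96h against TKO_48h, 5 of 9 fell and 0 rose, and 19.5% of all genes were called, 10.7% lower and 8.82% higher. Against WT_40h, 4 of 9 were lower and 0 higher in TKO_48h, with 5.66% of all genes called, 2.82% lower and 2.84% higher. In TKO_96h against WT_40h, 6 of 9 were lower and 0 higher, with 19.2% of all genes called, 10.1% lower and 9.1% higher. The 6 comparisons share libraries and are not independent of each other. The median log2 fold change of the 9 genes was -0.05 in TKO_40h against WT_40h, -0.27 in TKO_48h against TKO_40h and -0.94 in TKO_96h against TKO_40h. Over all genes tested the same medians were -0.001, 0.001 and 0. The number of the 9 genes with a value below 0 was 5, 8 and 8 in these comparisons.

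**Figure D2:**
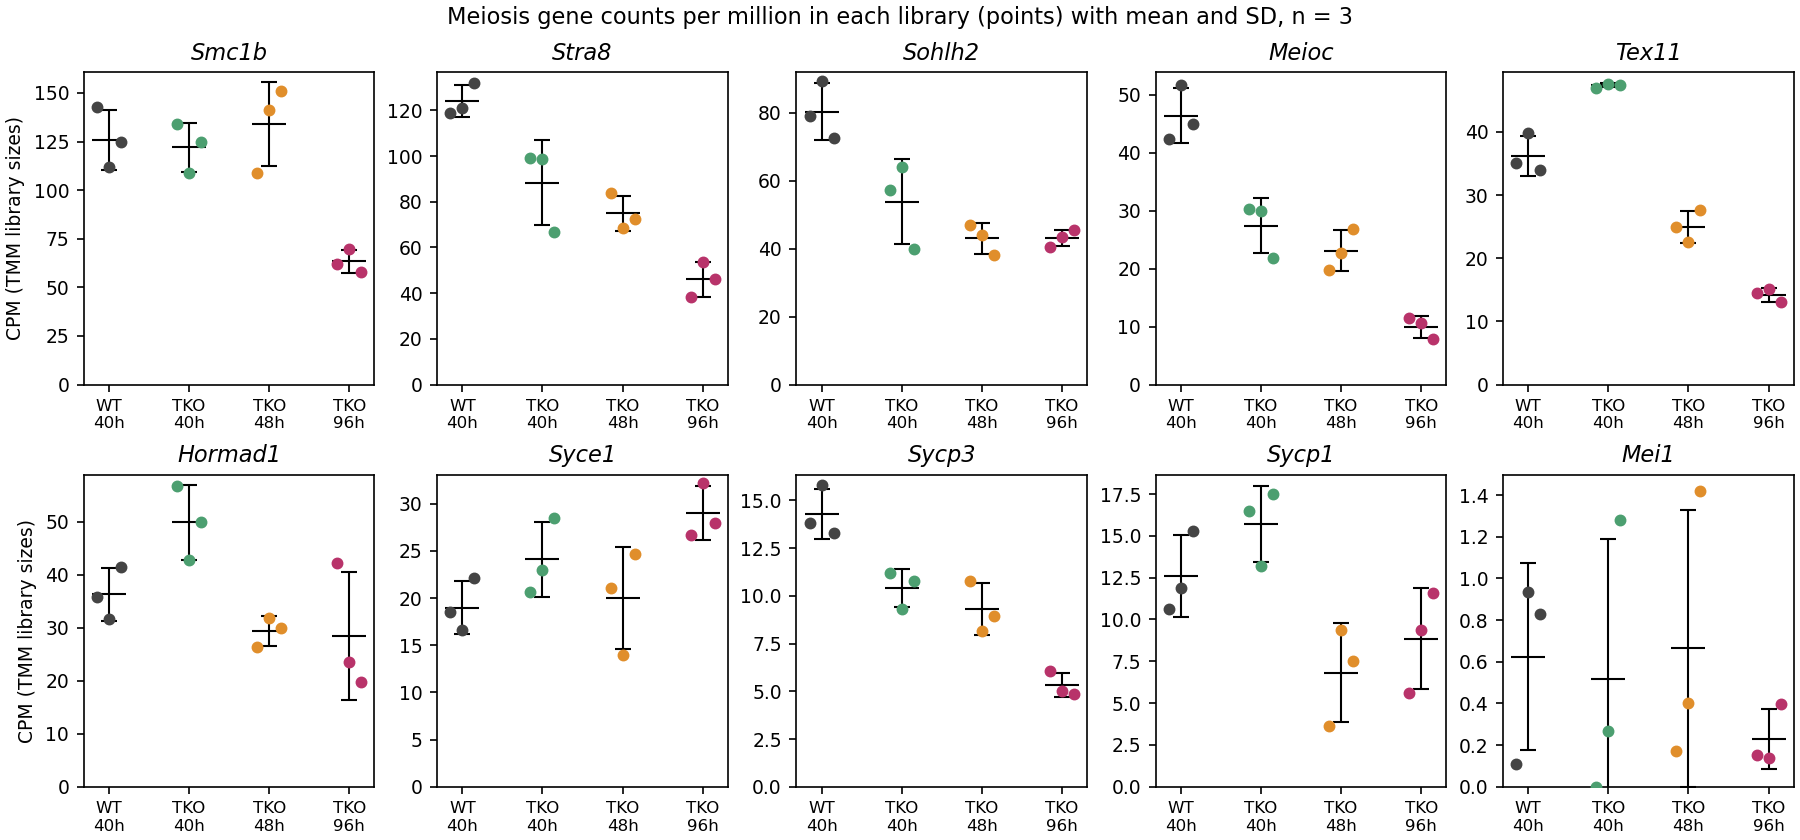
CPM (y axis, linear from 0, with its own range for each gene) in the 4 groups (x axis); points are libraries, the long bar is the mean and the whiskers the SD, n = 3, cut off at 0. Stra8, Meioc and Sycp3 are highest in WT_40h and lowest in TKO_96h, Smc1b is lower in TKO_96h than in the other groups, and Syce1 is at 26.7 to 32.2 CPM in TKO_96h, above every WT_40h library.

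Expression per transcript length, in TPM (abundance scaled to transcript length and depth), differed widely among the genes. In WT_40h the mean level was 84.9 ± 13.5 TPM (SD, n = 3) for Stra8. It was 21.7 ± 1.83 for Sohlh2, 19.4 ± 2.67 for Smc1b, 17 ± 2.79 for Hormad1 and 12.8 ± 4.93 TPM for Syce1. Meioc followed at 9.54 ± 1.48, Sycp3 at 9.01 ± 0.997, Tex11 at 7.77 ± 0.0786, Sycp1 at 4.46 ± 1.25 and Mei1 at 0.13 ± 0.0911 TPM. From Sohlh2 down to Sycp3, the ranges of mean ± SD of neighbours in this order overlapped, while Stra8 stood above all others and Mei1 below. In TKO_96h, Stra8 was at 34.8 ± 11.6, Syce1 at 16.6 ± 4.32, Hormad1 at 14.2 ± 5.37, Sohlh2 at 12.2 ± 1.27 and Smc1b at 10.2 ± 1.91 TPM. The other genes there were at 3.51 ± 0.559 (Sycp3), 3.37 ± 0.414 (Tex11), 2.43 ± 1.06 (Sycp1), 2.02 ± 1.13 (Meioc) and 0.0502 ± 0.0305 TPM (Mei1). Syce1 was thus in the fifth place in WT_40h and in the second in TKO_96h, and Meioc went from the sixth to the ninth.

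Among the genes of meiotic entry, Stra8 (chr6:34920163-34939344, plus strand) encodes the retinoic acid-induced factor that, with MEIOSIN, switches on the meiotic programme. Its levels were 119, 121 and 132 CPM in WT_40h and 99.3, 98.9 and 66.9 CPM in TKO_40h. They were 83.7, 68.6 and 72.6 CPM in TKO_48h and 38.2, 53.6 and 46.2 CPM in TKO_96h. Every TKO library lay below every WT library, the TKO_96h libraries lay below all others, and TKO_40h and TKO_48h overlapped. Stra8 fell in TKO_96h by a log2 fold change of -0.94 ± 0.15 (SE) against TKO_40h (adjusted p = 0.00038), to 0.522 of the TKO_40h level, and by -1.43 ± 0.15 against WT_40h (adjusted p = 2.3e-06). The genotype difference at 40 h was -0.49 ± 0.15 and was not called (adjusted p = 0.082, 95% interval -0.8 to -0.18). It was called by DESeq2, with no filter on low counts and with only the 2 groups compared in the fit. Among the other alternatives its adjusted p was up to 0.44. Without 1 library the value ran from -0.58 to -0.31, with adjusted p up to 0.37.

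Meioc (chr11:102663716-102682237, plus strand), whose protein works with the RNA helicase YTHDC2 to keep germ cells in meiotic prophase, followed the same order of groups. It was at 42.4, 51.7 and 45 CPM in WT_40h and at 30.3, 30 and 21.9 CPM in TKO_40h. It was at 19.8, 22.7 and 26.8 CPM in TKO_48h and at 11.5, 10.6 and 7.78 CPM in TKO_96h. The WT libraries were the highest, the TKO_96h libraries the lowest, and the groups between them overlapped. Meioc fell by -0.76 ± 0.19 in TKO_40h against WT_40h (adjusted p = 0.037) and by -1.46 ± 0.21 in TKO_96h against TKO_40h (adjusted p = 9.2e-05). From WT_40h to TKO_96h the difference was -2.22 ± 0.21 (adjusted p = 3.4e-07), to 0.215 of the WT level. The 40 h genotype call was lost without any 1 of the 6 libraries compared (adjusted p up to 0.18), and the value was -0.4 (adjusted p = 0.68) when effective transcript length entered as an offset.

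Sohlh2 (chr3:55182028-55209957, plus strand) encodes a basic helix-loop-helix factor of early spermatogonia and oocytes. WT_40h libraries held 78.9, 89.3 and 72.5 CPM and TKO_40h libraries 57.2, 64.1 and 39.8 CPM. TKO_48h held 46.9, 44 and 38.1 CPM and TKO_96h 40.5, 43.5 and 45.4 CPM. All TKO libraries lay below all WT libraries, and the TKO groups overlapped. Sohlh2 fell by -0.58 ± 0.16 in TKO_40h against WT_40h (adjusted p = 0.046). Within TKO its difference between 96 and 40 h was -0.31 ± 0.16 (95% interval -0.64 to 0.02, adjusted p = 0.22). The call at 40 h was lost without each of 8 libraries (every WT_40h library, TKO_40h replicates 1 and 3, TKO_48h replicate 3 and TKO_96h replicates 2 and 3), with values from -0.73 to -0.39, and with the effective length offset (adjusted p = 0.19).

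Of the chromosome axis, Smc1b (chr15:85064689-85131964, minus strand) encodes the meiosis-specific SMC subunit of cohesin. Its levels were 143, 112 and 125 CPM in WT_40h, 134, 109 and 125 CPM in TKO_40h and 109, 141 and 151 CPM in TKO_48h. In TKO_96h they were 62.2, 69.8 and 57.8 CPM. The first 3 groups overlapped, and TKO_96h lay below all of them. The genotype difference at 40 h was -0.05 ± 0.13 (95% interval -0.33 to 0.23, adjusted p = 0.92). Between 48 and 40 h the difference was 0.13 ± 0.13 (adjusted p = 0.66). Smc1b fell by -0.95 ± 0.14 in TKO_96h against TKO_40h (adjusted p = 9.6e-05) and by -1.08 ± 0.14 against TKO_48h (adjusted p = 1.4e-05).

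Sycp3 (chr10:88459569-88473236, plus strand) encodes a structural protein of the axis that becomes the lateral element of the synaptonemal complex. Its levels were 13.8, 15.8 and 13.3 CPM in WT_40h, 11.2, 9.3 and 10.8 CPM in TKO_40h, 10.8, 8.16 and 8.95 CPM in TKO_48h and 6.04, 5.04 and 4.88 CPM in TKO_96h. The WT libraries were the highest and the TKO_96h libraries the lowest, without overlap with another group. Sycp3 fell by -0.97 ± 0.27 in TKO_96h against TKO_40h (adjusted p = 0.022) and by -1.42 ± 0.27 against WT_40h (adjusted p = 0.00091). The first of these calls was lost without TKO_40h replicate 1 or 3 or TKO_96h replicate 2 or 3 (adjusted p up to 0.076), with no filter on low counts and with the effective length offset. A call between TKO_96h and TKO_48h (-0.8 ± 0.27, adjusted p = 0.043) was lost without any library but TKO_48h replicate 2 (adjusted p up to 0.12). The gene overlaps Chpt1, a phospholipid synthesis gene on the other strand, in 660 of its 1264 exon bases, and the strand setting of the counting is not given in the sources used here. The level of Sycp3 is therefore uncertain. Chpt1 held 17.6 ± 3.84 CPM at 40 h and 18.1 ± 0.12 CPM at 96 h in TKO, a difference of 0.04 ± 0.23 (95% interval -0.45 to 0.53, adjusted p = 0.95). At 48 h in TKO Chpt1 held 12.2 ± 3.65 CPM. Its difference was -0.52 ± 0.24 from 40 to 48 h (adjusted p = 0.23) and 0.56 ± 0.24 from 48 to 96 h (adjusted p = 0.11), neither called.

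Hormad1 (chr3:95559677-95587671, plus strand) encodes a HORMA-domain protein of unsynapsed axes that promotes break formation and checkpoint control. Its levels were 35.8, 31.6 and 41.5 CPM in WT_40h and 56.8, 42.8 and 50 CPM in TKO_40h. They were 26.3, 31.8 and 30 CPM in TKO_48h and 42.3, 23.5 and 19.8 CPM in TKO_96h. TKO_40h was the highest group, above every library of the others, and TKO_96h replicate 1 lay far above the other replicates of its group. The genotype difference at 40 h was 0.46 ± 0.22 and was not called (adjusted p = 0.31, 95% interval 0.01 to 0.91). Within TKO, Hormad1 fell by -0.76 ± 0.22 from 40 to 48 h (adjusted p = 0.047) and by -0.81 ± 0.22 from 40 to 96 h (adjusted p = 0.019). The 48 h call was lost without each of 10 libraries (every library but TKO_96h replicates 1 and 3). The 96 h call was lost without TKO_40h replicate 1 or 3 or TKO_96h replicate 2 or 3, and without TKO_96h replicate 1 the value was -1.2. Both calls were also lost with the effective length offset. Of the 31-base words of Hormad1 transcripts, 36.3% also occur in its pseudogenes Gm15529 and Gm7167, which held 0 to 6 counts in any library.

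Of the synaptonemal complex, Sycp1 (chr3:102818499-102936100, minus strand) encodes the transverse filament that bridges the paired axes. Its levels were 10.6, 11.9 and 15.3 CPM in WT_40h, 16.5, 13.2 and 17.5 CPM in TKO_40h, 3.61, 9.36 and 7.53 CPM in TKO_48h and 5.59, 9.38 and 11.6 CPM in TKO_96h. TKO_48h lay below WT_40h and TKO_40h, with replicate 1 the lowest library, and TKO_96h lay below TKO_40h and overlapped the other 2 groups. Sycp1 fell by -1.19 ± 0.33 from 40 to 48 h in TKO (adjusted p = 0.043). The difference from 40 to 96 h was -0.82 ± 0.33 (95% interval -1.51 to -0.13, adjusted p = 0.11). Without TKO_48h replicate 1 the value was -0.89 and the call was lost (adjusted p up to 0.14 without any 1 library). It was also lost without each of 8 others (every WT_40h and TKO_40h library, TKO_48h replicate 3 and TKO_96h replicate 2), with values from -1.48 to -0.89, with only the 2 groups in the fit, and with the effective length offset, where it was -0.74 (adjusted p = 0.5).

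Syce1 (chr7:140777229-140787852, minus strand), which encodes a protein of the central element, was not called lower in any comparison. Its levels were 18.5, 16.6 and 22.1 CPM in WT_40h and 20.7, 23 and 28.5 CPM in TKO_40h. They were 21.1, 14 and 24.7 CPM in TKO_48h and 26.7, 32.2 and 28 CPM in TKO_96h. TKO_96h was above every WT_40h and TKO_48h library and overlapped TKO_40h. No difference was called: it was 0.26 ± 0.21 in TKO_96h against TKO_40h (95% interval -0.18 to 0.71, adjusted p = 0.49) and 0.61 ± 0.22 against WT_40h (95% interval 0.15 to 1.06, adjusted p = 0.056). The latter passed the threshold without any 1 TKO_48h library (adjusted p down to 0.03), with a replicate block, by DESeq2 and with only the 2 groups in the fit. Over the alternatives the value ran from 0.29 to 0.62, with adjusted p up to 0.65. Without 1 library the adjusted p was up to 0.18.

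Of recombination, Tex11 (chrX:100838648-101059667, minus strand) encodes a protein that promotes crossover formation and is the X-linked gene of the list. Its levels were 35.1, 39.8 and 33.9 CPM in WT_40h and 47, 47.6 and 47.5 CPM in TKO_40h. They were 24.9, 22.5 and 27.6 CPM in TKO_48h and 14.5, 15.1 and 13.1 CPM in TKO_96h. The 4 groups did not overlap, with TKO_40h the highest and a lower level at each longer priming time within TKO. The genotype difference at 40 h was 0.39 ± 0.15 and was not called (adjusted p = 0.21, 95% interval 0.07 to 0.71). Tex11 fell by -0.92 ± 0.16 from 40 to 48 h (adjusted p = 0.0017) and by -1.73 ± 0.16 from 40 to 96 h (adjusted p = 4.7e-07), to 0.3 of the TKO_40h level. Between 48 and 96 h it fell by -0.81 ± 0.16 (adjusted p = 0.0015), a call lost with the effective length offset (adjusted p = 0.056). A smaller difference between TKO_48h and WT_40h (-0.54 ± 0.16, adjusted p = 0.049) was lost without any library but TKO_96h replicate 3.

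Mei1 (chr15:82069996-82126814, plus strand), needed for the programmed DNA breaks, held 1, 7 and 6 counts in the WT_40h libraries and 0, 2 and 11 in TKO_40h. It held 1, 3 and 10 counts in TKO_48h and 1, 1 and 3 in TKO_96h. These counts were below the filter and show no difference between groups that this depth could resolve.

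**Figure D3:**
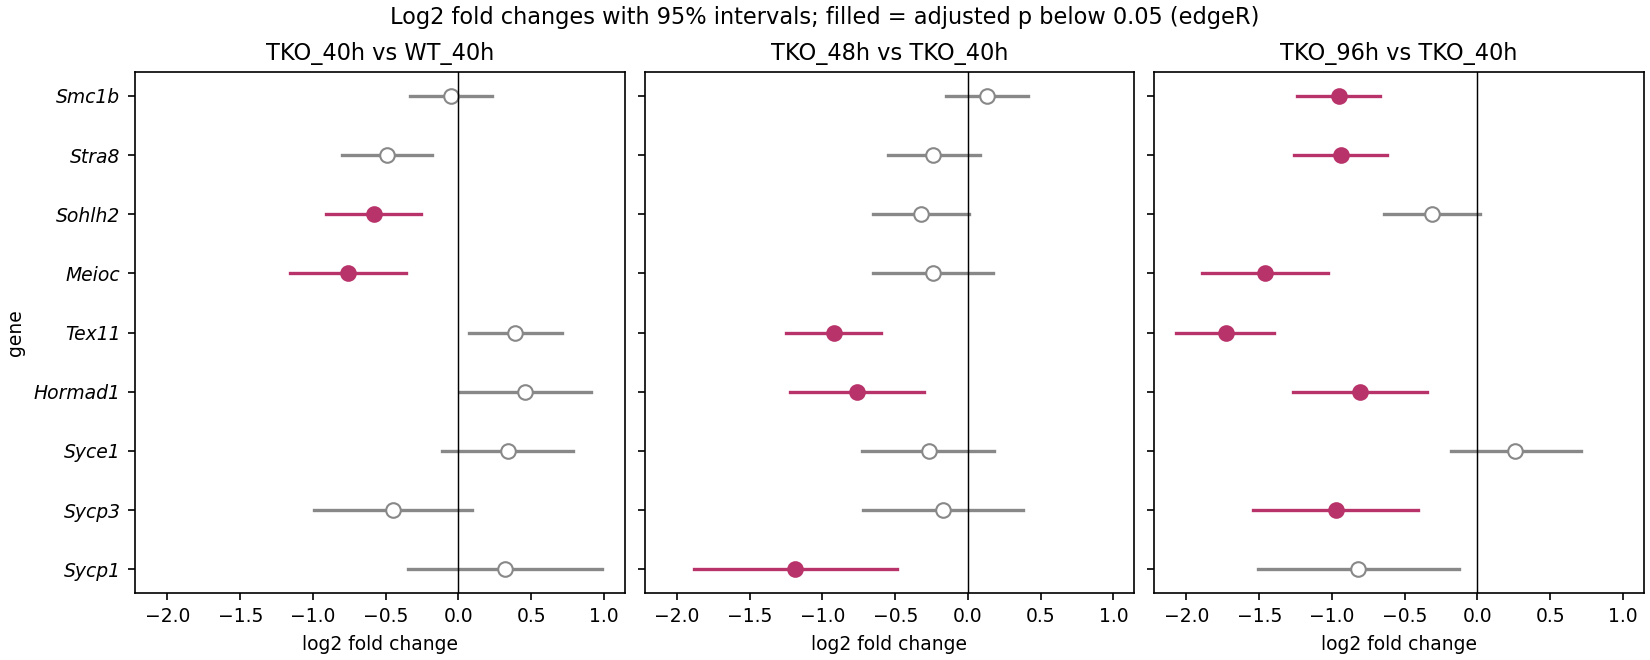
Log2 fold changes (x axis) of the 9 tested genes (y axis) in 3 comparisons; points are estimates, bars 95% intervals, and filled points have an adjusted p below 0.05. The filled points all lie left of 0, and in TKO_96h against TKO_40h they are Smc1b, Stra8, Meioc, Tex11, Hormad1 and Sycp3.

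The calls of Tex11, Meioc, Smc1b and Stra8 between TKO_96h and TKO_40h were the ones kept under every alternative and without any 1 library. Within TKO, Tex11 was already called lower at 48 h. Smc1b, Meioc and Stra8 were at 0.13 ± 0.13, -0.24 ± 0.2 and -0.24 ± 0.15 at 48 h against 40 h, none of them called. The level of Smc1b from 48 to 96 h dropped to 0.472, that of Meioc to 0.43 and that of Stra8 to 0.615. The Stra8 call in this interval was lost with the effective length offset (adjusted p = 0.099).

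The counts behind these levels came mostly from protein-coding transcripts. Other transcript types held 0.142% of the counts of Smc1b, 4.44% of Sycp3, 6.56% of Meioc and 37% of Mei1, and none of the counts of the other genes. The split between coding transcripts varied widely between libraries for some genes. Tex11-203 held 0.000869 to 100% of the counts of its gene, Hormad1-201 0 to 100% and Sycp1-201 8.81 to 97.3%. Smc1b-201 was steady at 99.4 to 100%. Sequence shared with other genes was at most 0.821% of 31-base words apart from Sycp3 (46.5%, mainly Chpt1), Hormad1 and Sycp1. The 15.6% of Sycp1 words were shared mainly with the pseudogene Sycp1-ps1, which held at most 1 count in any library.

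A wider list of 53 other meiosis genes, all present in the files, gave 44 tested genes. In TKO_40h against WT_40h, 1 of the 44 rose, 0 fell, and the median log2 fold change was -0.14; over all genes tested 1.62% rose and 1.48% fell, so that this count lies near the share of all genes. The gene that rose was Dazl, an RNA-binding factor that licenses germ cells for meiosis, at 62, 58.6 and 67 CPM in WT_40h and 114, 114 and 82.9 CPM in TKO_40h (0.73 ± 0.14, adjusted p = 0.0068). Between 40 and 48 h in TKO, 2 fell and 1 rose, beside 2.92% and 2.57% of all genes. Dazl was one of those that fell, by -0.97 ± 0.14 (adjusted p = 0.00049), the other was Tex15 (-0.77 ± 0.19, adjusted p = 0.023), and the recombination gene Brme1 rose (0.82 ± 0.23, adjusted p = 0.041).

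In TKO_96h against TKO_40h, 8 of the 44 fell and 1 rose, with a median of -0.44, beside 7.2% and 4.94% of all genes. The roles hold too few genes to be read against these shares one by one. By role, 1 of 2 tested cohesin genes fell, 1 of 6 synaptonemal complex genes, 0 of 3 HORMA and checkpoint genes, 1 of 4 genes of break formation, 2 of 15 recombination genes, 0 of 5 telomere attachment genes and 3 of 9 genes of meiotic entry. The cohesin subunit gene Stag3, a partner of Smc1b, was at 162, 171 and 185 CPM in TKO_40h and 102, 96.9 and 102 CPM in TKO_96h. It fell by -0.78 ± 0.12 (adjusted p = 0.00015). The other called genes were Sycp2, the partner of SYCP3 (-3.33 ± 0.71, adjusted p = 0.0035), Rec114, a break-forming factor (-0.75 ± 0.2, adjusted p = 0.017), and Dmc1, the meiotic strand-exchange recombinase (-1.44 ± 0.32, adjusted p = 0.0045). Tex15 (-1.41 ± 0.2), Taf7l (-2.11 ± 0.33), Tex101 (-3.21 ± 0.87) and Piwil2 (-1.05 ± 0.2) fell as well. Psmc3ip, a cofactor of DMC1, rose by 0.51 ± 0.16 (adjusted p = 0.043). Sycp2 held 2 to 4 counts and Tex101 0 to 9 counts in each TKO_96h library, so that their fold changes are imprecise. Spo11, which makes the DNA breaks, had 0 counts in 10 of 12 libraries and was not tested.

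**Figure D4:**
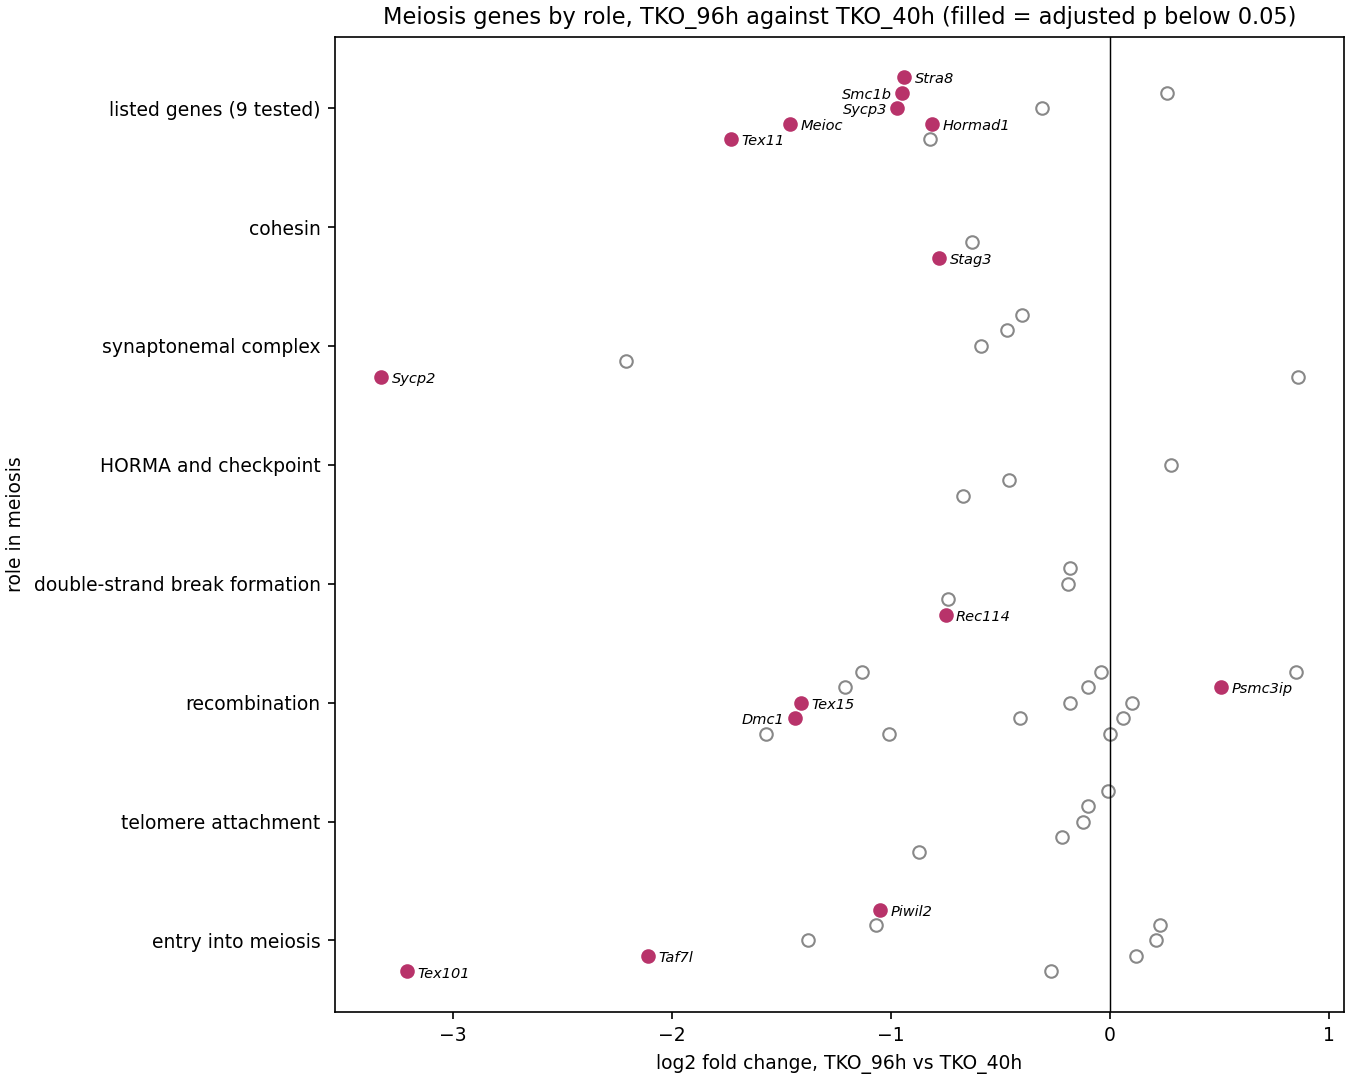
Log2 fold changes in TKO_96h against TKO_40h (x axis) for the 9 tested genes described above and 44 other tested meiosis genes, in rows by role (y axis; offsets within a row separate points). Filled, named points have an adjusted p below 0.05; all but Psmc3ip lie left of 0.

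In TKO_96h against TKO_48h, 15 of the 44 fell and 5 rose, with a median of -0.66, beside 10.7% and 8.82% of all genes. Against WT_40h, 2 fell and 0 rose in TKO_48h, beside 2.82% and 2.84% of all genes. In TKO_96h 14 fell and 4 rose against WT_40h, beside 10.1% and 9.1% of all genes. Those that fell at 96 h against WT included Rec8, the cleavable subunit of meiotic cohesin (-0.94 ± 0.24, adjusted p = 0.01), Dmc1 (-2.36 ± 0.32, adjusted p = 3.2e-05) and the central element gene Syce2 (-0.49 ± 0.15, adjusted p = 0.031). Those that rose were Psmc3ip (0.61 ± 0.16, adjusted p = 0.012), Dazl (0.46 ± 0.14, adjusted p = 0.027), Trip13, an ATPase that remodels HORMA-domain proteins (0.41 ± 0.13, adjusted p = 0.04), and Hei10, counted under Ccnb1ip1 (1.03 ± 0.32, adjusted p = 0.03). Hei10 was at 4830, 5630 and 6220 CPM in WT_40h. It was at 20200 CPM in TKO_96h replicate 1 and at 7430 and 6430 CPM in the other replicates of that group. Its value thus leans on replicate 1, and sequence that Hei10 shares with other genes was not examined.

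Retinoic acid drives Stra8 in the gonad, and 12 genes of its response were tested. In TKO_40h against WT_40h, 1 fell, the receptor gene Rara (-0.93 ± 0.16, adjusted p = 0.0022), and 0 rose, where 3.1% of all genes were called. In TKO_96h against TKO_40h, 2 fell and 0 rose, where 12.1% of all genes were called. Counts of 1 and 2 among 12 genes are too small to be read against these shares. Cyp26a1, which breaks retinoic acid down and is induced by it, was at 7.6, 9.97 and 7.56 CPM in TKO_40h and 0.302, 1.26 and 1.71 CPM in TKO_96h (-2.9 ± 0.48, adjusted p = 0.00041). Stra6, the retinol uptake receptor gene, fell by -1.89 ± 0.45 (adjusted p = 0.0082). Meiosin, the partner of Stra8, was at -1.07 ± 0.48 and was not called (adjusted p = 0.16).

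Of 14 genes for repressors of the germline programme, 1 rose and 0 fell in TKO_40h against WT_40h, where 3.1% of all genes were called, and a count of 1 is too small to be read against that share. This was L3mbtl2, a subunit of the Polycomb complex named above, at 136, 125 and 110 CPM in WT_40h and 250, 232 and 246 CPM in TKO_40h (0.97 ± 0.13, adjusted p = 0.00022). Its level in TKO_48h and TKO_96h was also above WT_40h, by 0.96 ± 0.13 and 0.75 ± 0.13 (adjusted p = 0.00032 and 0.00036). In TKO_96h against TKO_40h, 2 rose and 0 fell, beside 4.94% and 7.2% of all genes: Uhrf1, the partner of DNMT1 at replicating DNA (0.49 ± 0.1, adjusted p = 0.0028), and Rnf2, a Polycomb ubiquitin ligase gene (0.41 ± 0.12, adjusted p = 0.036). E2f6 was at -0.72 ± 0.24 and Mga at -0.28 ± 0.1 there, neither called (adjusted p = 0.051 and 0.087). Against WT_40h, E2f6 fell in TKO_96h (-0.79 ± 0.24, adjusted p = 0.022). Setdb1, a histone H3 lysine methyltransferase gene, fell in TKO_48h against TKO_40h (-0.38 ± 0.11, adjusted p = 0.049). In TKO_96h against TKO_48h, 6 of 14 rose and 0 fell, beside 8.82% of all genes called higher.

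Some germ cell markers were also lower at 96 h. Of 5 late germ cell markers found, all 5 fell in TKO_96h against TKO_40h, where 7.2% of all genes fell and 4.94% rose. They were Ddx4, Mael, Mov10l1, Piwil2 and Tex101, of which Piwil2 and Tex101 also stand in the meiosis list. Their summed level was 52.8 to 63.3 CPM in TKO_96h, against 118 to 131 CPM in WT_40h and 109 to 139 CPM at the 2 shorter priming times of TKO. Ddx4, the germline RNA helicase, fell by -1.19 ± 0.18 (adjusted p = 0.00023). Of 9 early germ cell markers tested, 3 fell and 0 rose: Dppa3 (-1.47 ± 0.2), Prdm1 (-1.01 ± 0.23) and Tfap2c (-0.79 ± 0.17), while the other 6 were not called and the median over the list was 0.34. Prdm1 and Tfap2c are the genes of core factors of germ cell specification. The summed early markers were at 218 to 259, 223 to 237, 294 to 298 and 200 to 214 CPM in WT_40h and then TKO by priming time. The receptor gene Kit and Prdm14 were at 0.41 ± 0.15 and 0.34 ± 0.25 and were not called (adjusted p = 0.08 and 0.45). In TKO_40h against WT_40h, 0 late markers were called, while of the early ones Dppa3 rose (1.63 ± 0.2, adjusted p = 0.00015), opposite to its later fall, and Kit fell (-0.78 ± 0.15, adjusted p = 0.0065). Over all genes 1.62% rose and 1.48% fell there. Between TKO_48h and TKO_40h, 0 late markers were called, and Kit rose (0.56 ± 0.15, adjusted p = 0.031), where 2.57% of all genes rose. Single calls in such short lists are too few to be read against these shares.

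Some markers of other cells were called as well between TKO_40h and TKO_96h, where 7.2% of all genes fell and 4.94% rose. Counts of 1 or 2 in lists this short are too small to be read against these shares. Of 5 naive pluripotency markers 4 rose, with sums of 1060 to 1100 and 1400 to 1550 CPM. Of 5 tested endoderm markers 2 fell, with sums of 25.9 to 30.3 and 10.4 to 21.4 CPM and with Afp and Apoa1 at 0 in TKO_96h. Of 3 tested mesoderm markers 1 fell (18.5 to 22.9 and 9.06 to 14.8 CPM), and of 4 tested neural markers 1 rose (86.5 to 106 and 119 to 136 CPM). Of 4 tested trophoblast markers 1 fell (32.5 to 44.9 and 27.6 to 30.3 CPM), and of 5 tested markers of endothelium and blood 0 were called (64.6 to 77.3 and 78.2 to 81.7 CPM). Between WT_40h and TKO_40h the mesoderm sum went from 6.41 to 7.46 CPM in WT to 18.5 to 22.9 CPM in TKO, with Hand1 called higher (2.35 ± 0.43, adjusted p = 0.0047). The naive marker Zfp42 (0.5 ± 0.1, adjusted p = 0.009) rose there too, where 1.62% of all genes rose. The endothelial markers Sox18 and Cdh5 were called higher there as well (adjusted p = 0.013 and 0.046), from few counts: Sox18 held 0, 8 and 1 counts in WT_40h and 40, 19 and 64 in TKO_40h, and Cdh5 held 1, 1 and 0 counts and then 17, 14 and 29. The sums of the endothelium and blood list overlapped between these groups (64.4 to 85.8 and 64.6 to 77.3 CPM). Markers of adult testis cells summed to 2.9 to 10.4 CPM over all libraries of the 4 groups. The part of these shifts in the levels of the meiosis genes was not tested.

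Over the 12 libraries, the tested protein-coding gene most like each called meiosis gene in log2 CPM (Pearson r, as a description; the libraries share 4 groups, which shape every r) was Flna for Stra8 (0.979), Ecpas for Smc1b (0.962), Tiparp for Sycp3 (0.961), Serpinh1 for Meioc (0.959) and Fgf5 for Tex11 (0.959). It was Gmcl1 for Sycp1 (0.941), Tex13b for Hormad1 (0.929) and Mgea5 for Sohlh2 (0.914). Tex11 was also close to Otx2 (0.952), which like Fgf5 is a marker of the epiblast. Among the meiosis genes themselves the closest pairs were Meioc with Sycp3 (0.944) and Meioc with Stra8 (0.933), and Syce1 ran against Meioc (-0.64) and Smc1b (-0.606).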

How the data were processed

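RNA was measured in 12 libraries of 4 groups, made from total RNA with a stranded low-input kit, per the labels. The authors deposited estimated counts (expected counts) and TPM per transcript; the submitters' processing notes name Trim Galore 0.6.2, kallisto and GRCm38 (mm10). The version and strand setting of kallisto were not given in the sources used here. Of 119414 transcripts, 116728 (97.8%) matched GENCODE M21; counts were summed per gene and rounded, and unmatched transcripts held 2.68 to 4.32% of counts. TPM were summed per gene for levels between genes. Genes were filtered with filterByExpr (minimum count 10, minimum total 15), which left 16178, and fitted over all 12 libraries, with 1 mean per group, in edgeR 4.0.16 (TMM, quasi-likelihood F-test, two-sided, Benjamini-Hochberg; common biological coefficient of variation 0.241). SE is the absolute log2 fold change over the square root of F, and 95% intervals use the t distribution of the fit. CPM use TMM library sizes. The likeness measure used log2 CPM with a prior count of 2.

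In simulated counts for TKO_40h against WT_40h (16178 genes, 200 changed), 68.9% of genes changed 2-fold and 92.7% of those changed 4-fold were recovered, with 3.53% of calls false. The changed genes were drawn only from genes above a minimum mean level, so that recovery of genes with few counts was not measured. The members and lists were chosen with earlier results of these data known. All 10 members are named. Other listed genes are named where called or as key genes of a role, but not every called gene is named. Spo11, Meiosin, Kit, Prdm14, Mga and E2f6 were named after their values were seen. Alternatives were DESeq2 1.42.0, RLE size factors, no filter, a replicate block, an offset for effective transcript length, a robust fit, only the groups compared, and each library left out. Promoters are from RefSeq (GRCm38.p6). R 4.3.3 and Python 3.11.15 were used.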

Additional observations from a re-analysis of the deposited data

How the results depend on the processing

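Of the genes' log2 fold changes recomputed under every alternative, 914 kept direction and side of the threshold, 86 lost a call, 11 gained one and 15 changed sign, the last all in uncalled differences. The offset for effective transcript length moved the number of meiosis genes called from 2 to 0 (TKO_40h against WT_40h), 3 to 1 (TKO_48h against TKO_40h), 6 to 4 (TKO_96h against TKO_40h), 5 to 2 (TKO_96h against TKO_48h) and 4 to 1 (TKO_48h against WT_40h); the cause was not tested. Without 1 library, the counts ran from 0 to 2, 1 to 3, 4 to 6 (TKO_96h against TKO_40h), 4 to 5, 3 to 4 and 6 to 7 (TKO_96h against WT_40h). Replicate numbers did not pair the libraries (correlations of deviations from -0.0598 to 0.0507 over 18 pairs); with a replicate block 2, 3, 6, 4, 3 and 7 were called, in the order TKO_40h against WT_40h, TKO_48h and TKO_96h against TKO_40h, TKO_96h against TKO_48h, TKO_48h and TKO_96h against WT_40h.

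Signs changed for Smc1b in TKO_40h against WT_40h (offset 0.02, without 1 library -0.13 to 0.06), Sycp1 there (offset -0.16) and in TKO_96h against TKO_48h (offset -0.05). In the latter comparison they changed for Hormad1 (without 1 library -0.45 to 0.17) and Sohlh2 (offset -0.02, only the groups compared 0, without 1 library -0.08 to 0.08), and in TKO_48h against WT_40h for Syce1 (offset -0.13, without 1 library -0.1 to 0.27). The number of all genes called moved by over 1.5 times in TKO_40h against WT_40h, from 501 to 787 with no filter, 785 with DESeq2, 1279 with only those groups and 75 with the offset. With the offset it was 203 of 888, 828 of 1965, 1639 of 3157, 238 of 916 and 1467 of 3099 in the other comparisons in the order above, and 586 for TKO_48h against WT_40h with only those groups. Without 1 library, the number of all genes called ran from 181 to 667, 324 to 1107, 1210 to 2270, 2344 to 2991, 396 to 1540 and 2084 to 3447 in the order above, and the shares of all genes called rest on these counts. Depth limits Mei1, Sycp3 and Sycp1 most, which rest on 0 to 150 counts per library.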
